A study of Mus musculus with 24 samples.

Results

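The ribosomal RNA block on chromosome 17 is a 5800-bp stretch of the mouse genome (mm10) that holds part of one copy of the ribosomal DNA repeat and that GENCODE annotates with the long non-coding RNA genes Gm26917 and Gm42418. Its members were the 100-bp windows of this stretch that the authors' MeDIP-seq tables listed as different between groups. Of 58 windows, 57 were listed in at least 1 of 4 tables, out of 14618 distinct windows listed in the whole series. MeDIP-seq pulls down denatured DNA fragments with an antibody against 5-methylcytosine (5mC) and sequences them, and input is the same DNA sequenced without the antibody. The members were chosen by the measured difference between knockout (KO) and wild-type (WT) IP libraries, so the size of that difference is given as a description without a test. The tests were kept for IP against input and for KO against WT input. Of these, only KO against WT input used no library that chose the windows.

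All samples were mouse embryonic stem (mES) cells, grown with LIF, CHIR99021 and PD0325901 and passaged on gelatin to remove feeder cells. The Tet2 experiment compared Tet2-KO with WT cells, both transfected with a control siRNA (siNC), and it held 3 IP libraries a group with 8.92 to 15.4 M reads. WT and Tet2-KO cells transfected with siRNA against Nsun2 (siNsun2), which encodes an RNA cytosine methyltransferase, made up another 2 groups. Their tables against siNC, 31 windows in WT and 244 in Tet2 KO, listed 0 block windows each. The Pspc1 experiment compared Pspc1-KO with WT cells without siRNA, with 3 IP libraries (20.4 to 39.8 M reads) and 3 input libraries (10.5 to 14.8 M reads) a group. The study describes its genome-wide data as biological replicates, without saying for MeDIP-seq whether these were separate cultures or how many clones stood behind each KO, and p-values measure only the spread between these libraries. In each group's longest list of windows, a chi-square test of the counts found no difference beyond sampling noise between replicates 2 and 3 of WT siNC, replicates 2 and 3 of Tet2-KO siNC and replicates 1 and 2 of WT IP, while it did for the other pairs of these groups. Each such pair was counted as 1 sample in a mean ± SD, which gives n = 2 for these groups. In Pspc1-KO IP, Pspc1-KO input and WT input no pair differed beyond sampling noise (p from 0.0620 to 0.990), so no pair stood apart and n = 3 was kept. The pattern did not hold in the shorter siNsun2 lists, where replicates 2 and 3 of WT siNC differed over 31 windows and no pair of Tet2-KO siNC did over 240 or 241. Nor did it hold over the block windows alone. There replicates 2 and 3 of Pspc1-KO IP differed (p = 0.00307, chi-square test), as did replicates 1 and 3 of WT IP (p = 0.00633, chi-square test). No pair of WT siNC, Tet2-KO siNC or the input groups differed there. With all 3 libraries of each group kept apart, the log2 differences of the block given below moved by less than their SD (to -2.74 ± 0.17 for Tet2 KO). The Tet2 label could be checked, since 5 listed windows within Tet2 (chr3:133487401-133487900) held 5.21 to 15.8 RPKM in WT siNC and 0 reads in each Tet2-KO siNC library. No window of the Pspc1 gene was listed in the Pspc1 table.

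Ribosomal DNA is transcribed by RNA polymerase I into one long precursor, which is cut into 18S, 5.8S and 28S ribosomal RNA, and spacers between them are discarded. The genome carries many tandem copies, and methylation of CpG sites in a share of them is known to accompany their silencing. TET2 oxidizes 5mC, and PSPC1 is an RNA-binding protein of nuclear paraspeckles that binds TET2. Most ribosomal DNA copies are missing from the mm10 assembly, so reads from any copy can be placed on this block, and its signal stands for a mixture of copies.

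The 18S sequence was placed by the RefSeq entry Rn18s-rs5 (chr17:39846354-39848202, plus strand), which RefSeq types as a pseudogene. By this entry the block holds 34 windows before the 18S sequence, which belong to the 5′ external transcribed spacer. It holds 18 windows within 18S and 6 windows after it, at the start of internal transcribed spacer 1. Gm26917 (ENSMUSG00000097971.3, chr17:39843013-39846341, plus strand) covers the 34 windows before 18S. Gm42418 (ENSMUSG00000098178.1, chr17:39846958-39848788, plus strand) covers 19 windows, most of them in 18S. On the opposite strand GENCODE places the rRNA gene CT010467.1 (chr17:39846353-39848827) and AY036118 (chr17:39847113-39848035), and MeDIP-seq does not tell strands apart. The windows before 18S had a median of 11 CpG sites and 70% GC, those in 18S had 7 CpG sites and 55% GC, and those after it had 14 CpG sites and 70.5% GC. The coupling factor (CF) that the tables give for each window equalled the CpG count of the reference in 57 of 57 windows.

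The CpG content varied from 3 to 17 sites among the block windows, and 6 windows that the results below turn on show this range. They are printed from the plus strand of the mm10 reference with each CpG in capitals. The first had the highest WT IP signal in both experiments, the next had the most CpG sites and the one after it the fewest. The following pair had a large and the smallest difference between Tet2 KO and WT, and the last had the largest log2 difference between Pspc1 KO and WT. The CF of the second window is 17 although 16 CpG sites lie within its letters, because CF also counts a site that starts at its last base.
chr17:39845201-39845300: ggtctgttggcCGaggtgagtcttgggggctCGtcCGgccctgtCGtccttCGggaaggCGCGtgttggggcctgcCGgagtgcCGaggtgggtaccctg
chr17:39848401-39848500: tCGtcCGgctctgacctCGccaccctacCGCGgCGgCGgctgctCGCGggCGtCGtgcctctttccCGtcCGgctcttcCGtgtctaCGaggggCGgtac
chr17:39847501-39847600: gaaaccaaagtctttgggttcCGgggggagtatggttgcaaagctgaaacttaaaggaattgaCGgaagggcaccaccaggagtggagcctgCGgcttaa
chr17:39848601-39848700: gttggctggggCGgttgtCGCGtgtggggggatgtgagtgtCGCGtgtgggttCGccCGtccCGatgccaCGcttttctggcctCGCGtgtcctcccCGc
chr17:39843301-39843400: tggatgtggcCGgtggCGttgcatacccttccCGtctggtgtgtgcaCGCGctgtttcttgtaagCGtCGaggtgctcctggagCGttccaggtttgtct
chr17:39845601-39845700: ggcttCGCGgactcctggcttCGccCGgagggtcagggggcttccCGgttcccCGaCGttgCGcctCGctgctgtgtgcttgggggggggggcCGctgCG

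The Tet2 table listed 51 of the 58 block windows and the Pspc1 table listed 56, with 50 in both. Over all windows of the assembled chromosomes, 0.0521% were listed in the Tet2 table and 0.00108% in the Pspc1 table. The listing is the rule that chose the block, so nothing is read from this contrast. The Tet2 table lacked the first window of the block and 6 consecutive windows ending at chr17:39844000, and the Pspc1 table lacked 1 window of the 5′ spacer and 1 of 18S (chr17:39846501-39846600). No listed window adjoined the block. Its nearest listed neighbours in the Tet2 table lay 378 kb below (chr17:39465201-39465300) and 369 kb above it (chr17:40218001-40218100), and those in the Pspc1 table lay 12553 kb below and 48990 kb above. All of these neighbours were lower in KO, as in chr17:40218001-40218100, where WT siNC held 17.4, 15.8 and 15.0 RPKM and Tet2 KO 2.24, 0.71 and 3.53. Just inside the block, the window ending at chr17:39848800 held 25, 22 and 25 reads in WT siNC and 0, 1 and 3 reads in Tet2 KO. Outside the block, 8 stretches of the assembled chromosomes aligned to it, of which the longest match was 901 aligned bases on chromosome 6 (chr6:3200770-3201670) at 98.2% identity, and 0 of the 8 held a listed window. The 32 bases in the middle of a window were unique in the assembly for 49 of the 58 windows and occurred up to 3 times for 9.

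In Tet2-KO cells the MeDIP signal over the listed windows of the block was 6.88-fold lower than in WT cells. Block windows that were not listed are left out. They adjoin the 3 windows with the smallest differences, so the value does not stand for the whole block. The mean RPKM (reads per kilobase and per library total) over the 51 listed windows was 65.8, 53.5 and 56.0 in the WT siNC libraries and 8.55, 8.38 and 9.06 in the Tet2-KO siNC libraries. No KO library came near a WT library. The group means were 60.3 ± 7.79 RPKM in WT (SD, n = 2) and 8.63 ± 0.121 in Tet2 KO (SD, n = 2), a log2 difference of -2.78 ± 0.19 (SD). These values are relative to the library totals, and with libraries scaled by the listed windows themselves (TMM factors) the log2 difference was -0.89. In all 51 windows the 3 KO libraries lay below the 3 WT libraries. Of all 14279 windows listed in this table, 83.1% were lower in KO, and the same 83.1% had no overlap between the groups. Since all of these windows were selected for this contrast, the counts describe the list only. The median log2 difference was -3.04 over the block windows and -2.66 over all listed windows. No input library of the Tet2 experiment was analysed here, so fewer ribosomal DNA copies and less 5mC per copy cannot be told apart.

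**Figure D1:**
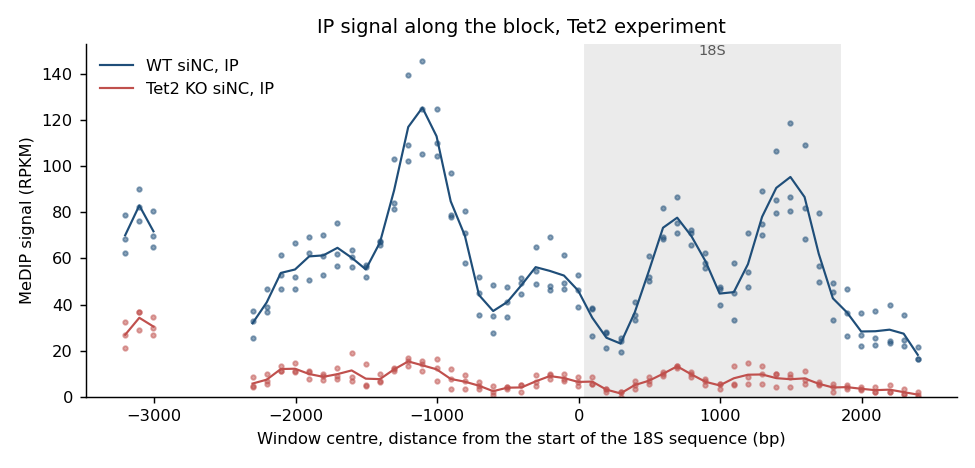
IP signal in RPKM of each listed 100-bp window (vertical axis) against the distance of its centre from the start of the 18S sequence in bp (horizontal axis), for 3 WT siNC and 3 Tet2-KO siNC libraries (points) with the mean of the 3 libraries (lines). Breaks in the lines are windows the table did not list, and the KO points lie below the WT points in all 51 windows.

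The difference was not even along the block. Gm26917 held 72.4, 61.9 and 60.8 RPKM in WT siNC and 10.1, 10.6 and 12.3 in Tet2 KO over 27 windows, a log2 difference of -2.62 ± 0.21 (SD). Gm42418 held 64.3, 47.8 and 53.8 RPKM in WT siNC and 7.31, 6.21 and 5.68 in Tet2 KO over 19 windows, a log2 difference of -3.10 ± 0.32. The difference between the genes was not tested. By section, and over listed windows only, the log2 difference was -2.62 ± 0.21 before 18S, -3.01 ± 0.30 in 18S and -3.49 ± 0.59 over the 6 windows after it.

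The 3 listed windows at the start of the block (chr17:39843101-39843400) kept more signal than the rest. Their log2 differences ran from -1.37 to -1.15, while those of the other 48 windows (chr17:39844001-39848800) ran from -5.61 to -2.16. In chr17:39843301-39843400, printed above with 8 CpG sites, WT siNC held 65.1, 80.5 and 69.7 RPKM and Tet2 KO 34.7, 27.0 and 29.6, the smallest log2 difference of the block (-1.15). In chr17:39843201-39843300 the values were 82.4, 90.3 and 76.2 RPKM in WT siNC and 37.0, 29.1 and 36.7 in Tet2 KO (-1.24). Both windows were lower in each KO library than in any WT library, by less than elsewhere in the block.

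The highest WT signal lay in the 5′ spacer. In chr17:39845201-39845300, with 9 CpG sites, WT siNC held 146, 125 and 106 RPKM and Tet2 KO 11.2, 15.6 and 14.1 (log2 difference -3.32). The neighbouring window chr17:39845101-39845200 held 140, 109 and 102 RPKM against 13.5, 15.6 and 16.9 (-3.03). Both differences lay inside the middle range of the block windows (quartiles -3.45 and -2.67). The lowest WT signals were those of the window ending at chr17:39848800 and of chr17:39846601-39846700 in 18S, with 15 CpG sites, where WT siNC held 24.3, 19.6 and 25.4 RPKM and Tet2 KO 2.24, 0 and 2.12. In the CpG-richest window, chr17:39848401-39848500, WT siNC held 37.3, 22.6 and 25.4 RPKM and Tet2 KO 2.24, 2.13 and 4.23 (-3.44). In the CpG-poorest, chr17:39847501-39847600, the values were 71.1, 47.4 and 54.1 RPKM in WT siNC and 14.6, 8.53 and 5.64 in Tet2 KO (-2.55). The largest log2 difference but for the last window was that of chr17:39848601-39848700, with 35.6, 21.8 and 24.8 RPKM in WT siNC and 1.12, 1.42 and 3.53 in Tet2 KO (-4.03). The largest log2 difference (-5.61) belonged to the last window, whose 0 to 3 KO reads make it depend on the pseudocount of 0.1 RPKM. Over the 51 windows the CpG count and the log2 difference correlated weakly (Pearson r = -0.17, as a description, since neighbouring windows share fragments). The relative methylation score, which MEDIPS corrects for CpG density, had block means of 0.431, 0.423 and 0.441 in WT siNC and 0.216, 0.257 and 0.265 in Tet2 KO, and it was lower in KO in 51 of 51 windows. It rests on the same IP reads that listed these windows, so this count describes the list only.

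In Pspc1-KO cells the IP signal over the listed windows of the block was 1.90-fold lower than in WT cells, while the input signal was nearly equal. Over the 56 listed windows the WT IP libraries held 160, 159 and 160 RPKM and the Pspc1-KO IP libraries 86.2, 84.6 and 81.7. The input libraries held 75.7, 79.7 and 77.0 RPKM in WT and 80.7, 74.1 and 76.6 in Pspc1 KO. The IP groups were far apart and the input groups overlapped. The means were 160 ± 0.119 RPKM (SD, n = 2) for WT IP, 84.2 ± 2.30 (SD, n = 3) for Pspc1-KO IP, 77.5 ± 2.03 (SD, n = 3) for WT input and 77.1 ± 3.34 (SD, n = 3) for Pspc1-KO input. In this order the Pspc1-KO IP level lay above the input levels by more than the spread, and the input levels did not differ beyond it. The log2 difference of KO from WT was -0.93 ± 0.04 (SD) for IP and -0.01 ± 0.07 for input, and with TMM factors over the listed windows it was -0.40 and 0.10. The block level of WT siNC IP in the Tet2 experiment (60.3 RPKM) was lower than that of WT IP here (160 RPKM). These means cover 51 and 56 windows, from cells with and without siNC, and were not tested against each other.

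**Figure D2:**
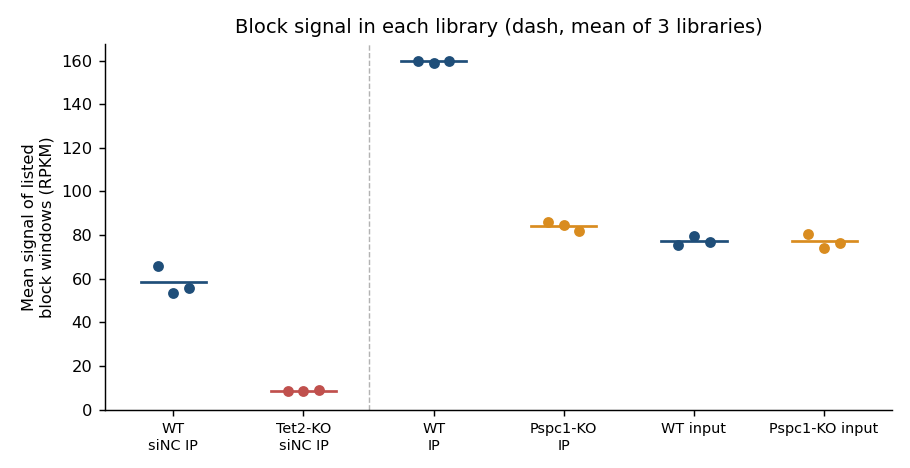
Mean RPKM over the listed block windows (vertical axis, from 0) in each library (points) of 6 groups, with dashes at the mean of the 3 libraries. The dashed line parts the Tet2 experiment (51 windows) from the Pspc1 experiment (56 windows), and the WT and Pspc1-KO input libraries overlap between 74.1 and 80.7 RPKM.

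In all 56 windows the 3 Pspc1-KO IP libraries lay below the 3 WT IP libraries. Of the 307 windows listed for Pspc1 KO, 81.1% were lower in KO, and the same 81.1% did not overlap. The block made up 22.5% of the 249 windows that were lower in KO, and 56 of all 307 listed windows. The log2 difference in IP was even, from -1.16 to -0.64 with a median of -0.94, against a median of -0.56 over all listed windows. The relative methylation score of the block was 0.537, 0.539 and 0.589 in WT and 0.492, 0.498 and 0.488 in Pspc1 KO, lower in KO in 56 of 56 windows. This count too describes the list only, since the score rests on the IP reads that listed the windows. The WT library with the highest score was the deepest (39.8 M reads), at nearly the same RPKM as the others.

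**Figure D3:**
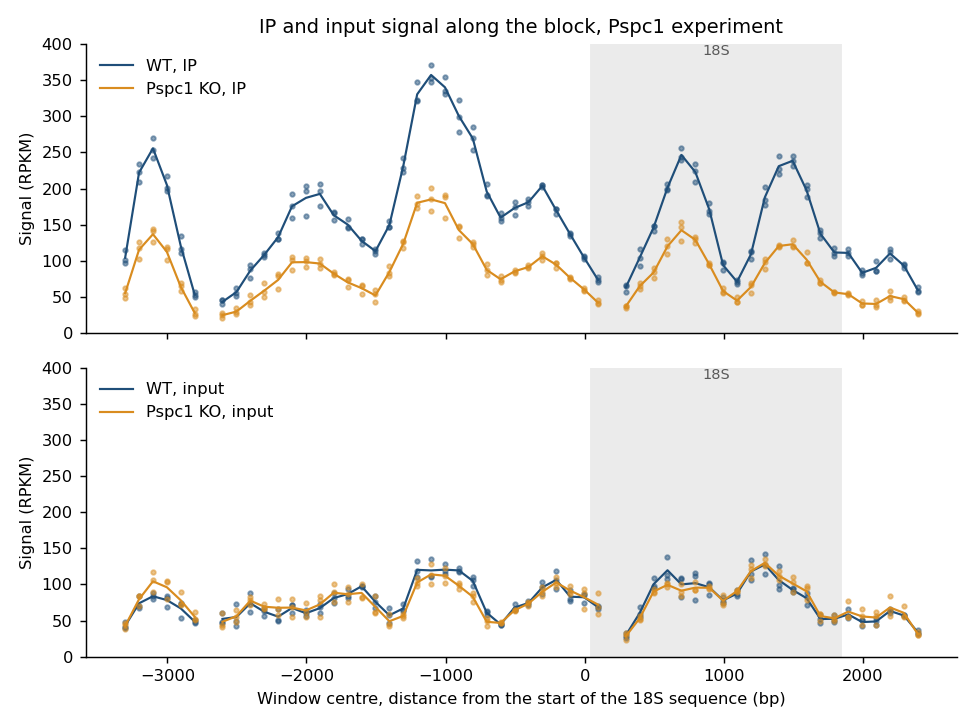
IP (upper panel) and input signal (lower panel) in RPKM of each listed window (vertical axes, same scale) against the distance of its centre from the 18S start in bp (horizontal axis), for 3 WT and 3 Pspc1-KO libraries (points) with the mean of the 3 libraries (lines). The IP profiles have the same shape at different heights, and the input profiles overlap.

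Both genes and all sections took part. Gm26917 held 178, 173 and 176 RPKM in WT IP and 93.8, 90.9 and 88.0 in Pspc1-KO IP over 33 windows (log2 difference -0.95 ± 0.05, SD). Gm42418 held 141, 149 and 147 RPKM in WT IP and 79.1, 79.2 and 76.2 in Pspc1-KO IP over 19 windows (-0.90 ± 0.03). The log2 difference was -0.85 ± 0.06 in 18S and -1.06 ± 0.11 after it.

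The window with the highest WT signal was the same as in the Tet2 experiment. In chr17:39845201-39845300 WT IP held 371, 347 and 353 RPKM and Pspc1-KO IP 185, 169 and 201, beside 112, 136 and 111 RPKM in WT input and 129, 100 and 113 in Pspc1-KO input. Next to it, chr17:39845301-39845400 held 355, 331 and 335 RPKM in WT IP and 191, 160 and 188 in Pspc1-KO IP. Both IP levels exceeded every input library there. The lowest WT IP signals were 45.2, 39.8 and 45.2 RPKM in chr17:39843701-39843800 and 56.5, 53.5 and 50.2 in chr17:39843501-39843600, both in the 5′ spacer. Pspc1-KO IP held 28.5, 21.3 and 24.9 RPKM in the former and 26.6, 23.4 and 34.01 in the latter, below every KO input library of these windows. The largest log2 difference was found in chr17:39845601-39845700 (-1.16), where WT IP held 207, 190 and 191 RPKM and Pspc1-KO IP 86.8, 96.0 and 79.8. The CpG-richest window, chr17:39848401-39848500, came next (-1.15), with 85.9, 99.8 and 85.4 RPKM in WT IP and 39.0, 36.3 and 45.8 in Pspc1-KO IP. In the CpG-poorest, chr17:39847501-39847600, WT IP held 103, 112 and 113 RPKM and Pspc1-KO IP 67.0, 69.3 and 55.3 (-0.79). The smallest log2 difference was -0.64 in chr17:39846701-39846800, where WT IP held 116, 104 and 93.2 RPKM and Pspc1-KO IP 65.2, 68.9 and 60.8. It was followed by -0.68 in chr17:39847401-39847500, also in 18S, with 67.8, 71.5 and 74.1 RPKM in WT IP and 42.7, 49.7 and 42.6 in Pspc1-KO IP. Over the 56 windows the CpG count and the log2 difference had a Pearson r of -0.42, so windows with more CpG sites tended to differ more, as a description.

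**Figure D4:**
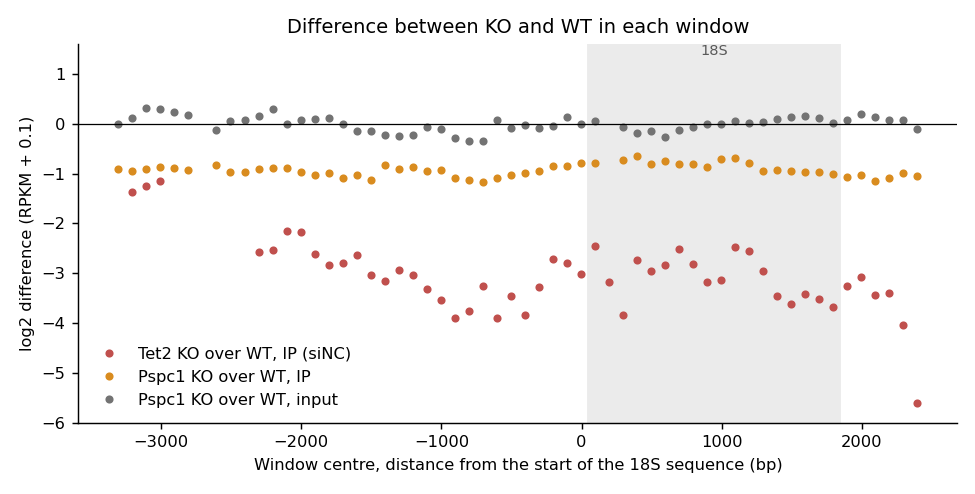
Log2 difference of KO from WT on the RPKM + 0.1 scale (vertical axis) in each window against the distance of its centre from the 18S start in bp (horizontal axis), for Tet2-KO IP, Pspc1-KO IP and Pspc1-KO input. Pspc1-KO IP lies between -1.16 and -0.64 and its input around 0, while Tet2-KO IP runs from -1.15 to -5.61.

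The profiles of the experiments along the block were alike. The log2 mean RPKM of WT siNC IP and of WT IP correlated over the 50 shared windows (Pearson r = 0.87), which share sequence and CpG content. The log2 differences of the KOs did so less (Pearson r = 0.35, Spearman rho = 0.45), from separate WT libraries. At the start of the block (chr17:39843101-39843400), where the Tet2-KO differences were smallest, the Pspc1-KO log2 differences ran from -0.95 to -0.86, near their median elsewhere.

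The input libraries took no part in selecting the windows, so Pspc1 KO was tested against WT input. With edgeR's quasi-likelihood test, adjusted by Benjamini-Hochberg over all 307 windows of the table, 0 of the 56 block windows were called in either direction at 0.05. Of all listed windows 0% were called higher and 1.95% lower, which is 6 windows, and this number fell to 0 without Pspc1-KO input replicate 3, to 1 without WT input replicate 3 and to 3 without WT input replicate 1, and rose to 10 with close replicates summed or with only the 6 input libraries fitted. At an unadjusted p under 0.05 there were 7 of the 56 block windows and 38 of all 307, and DESeq2 called 0 block windows. The log2 fold changes ran from -0.33 to 0.32 with a median of 0.01 and a median SE of 0.13. The smallest adjusted p was 0.0794, at chr17:39845501-39845600 (log2 fold change -0.33 ± 0.11, SE). The input signal of the block was high, with a median of 74.3 RPKM over its windows in WT against 1.69 over the other 251 listed windows, and it followed the same course in WT and Pspc1 KO (Pearson r = 0.95 over 56 windows).

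IP against input asks how strongly the block was enriched by the antibody. In WT cells 50 of the 56 block windows were higher in IP than in input and 1 was lower, by edgeR at an adjusted p of 0.05, beside 96.4% higher and 1.63% lower among all 307 listed windows. The WT IP libraries also took part in choosing these windows, so these calls and their p-values are not independent of that choice. Over the block the log2 fold change had a median of 1.03, against 5.70 for the other 251 listed windows. So the block was enriched less than the other windows of its table, as a description. The most significant window was again chr17:39845201-39845300 (log2 fold change 1.59 ± 0.06, SE, adjusted p = 3.87e-56 by edgeR). The highest enrichment was 3.54-fold, in chr17:39845701-39845800 with 16 CpG sites (log2 fold change 1.83 ± 0.10). In the 5′ spacer 30 of 33 windows were called higher, in 18S 14 of 17 and after it 6 of 6. The 1 window called lower was chr17:39847401-39847500 in 18S (log2 fold change -0.28 ± 0.10, adjusted p = 0.00595 by edgeR), where WT IP held 67.8, 71.5 and 74.1 RPKM and WT input 83.7, 92.3 and 86.4. With library scaling set by the listed windows themselves instead of by the library totals (TMM factors, or DESeq2's own size factors), 0 of the 56 were called higher and 56 lower, in WT and in Pspc1 KO.

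In Pspc1-KO cells 26 of the 56 block windows were higher in IP than in input and 19 were lower, beside 87.9% higher and 7.49% lower among all 307 windows. The block thus held 19 of the 23 windows of the table called lower in KO, while it made up 56 of the 307 tested. Outside the block 4 of 251 windows were called lower. These counts depend on the scaling, since 88 windows of the table were called lower with TMM factors and 73 with DESeq2's own size factors. The median log2 fold change was 0.11, with a range from -1.01 to 1.13. Of the 50 windows called higher in WT, 26 were also called higher in Pspc1 KO, 11 were not called and 13 were called lower. The KO and WT IP libraries chose the windows, so the calls in either genotype are not independent of that choice. For the same reason the difference between these counts was not tested. Gm26917 had 19 windows called higher and 10 lower of 33, and Gm42418 had 5 higher and 8 lower of 19. After 18S, 4 of 6 windows were lower and 0 higher.

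**Figure D5:**
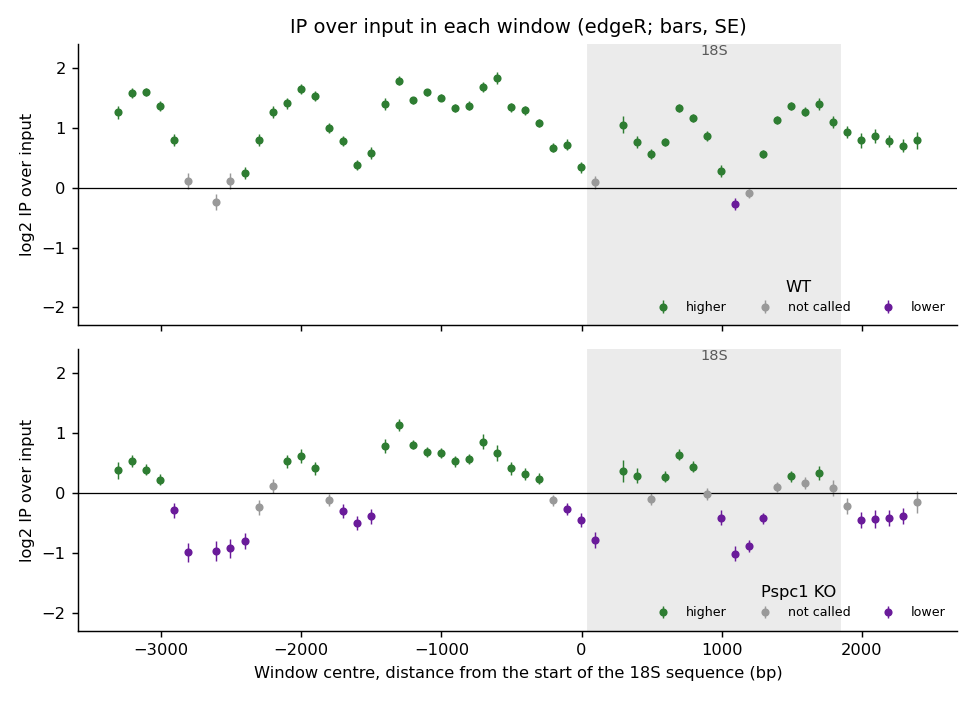
Log2 fold change of IP over input by edgeR (vertical axes; bars, SE) in each block window of the Pspc1 table against the distance of its centre from the 18S start in bp (horizontal axis), in WT (upper panel) and Pspc1 KO (lower panel), coloured by the call at an adjusted p of 0.05. The course is the same in both, and 50 windows are called higher in WT against 26 in Pspc1 KO.

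The windows with the lowest ratio in KO formed short runs at the same places where the WT ratio was lowest. The p-values given for them use IP libraries that chose the windows and are not independent of that choice. In chr17:39847401-39847500 Pspc1-KO IP held 42.7, 49.7 and 42.6 RPKM and its input 91.7, 90.8 and 90.3 (log2 fold change -1.01 ± 0.12, SE, adjusted p = 2.91e-14 by edgeR). In chr17:39843501-39843600 the log2 fold change was -0.99 ± 0.16 (adjusted p = 4.41e-09 by edgeR) in KO and 0.11 ± 0.13 (adjusted p = 0.400 by edgeR) in WT. The highest ratio in KO was found in chr17:39845001-39845100 (log2 fold change 1.13 ± 0.10, adjusted p = 1.93e-20 by edgeR), where it was 1.79 ± 0.08 in WT. Over the 56 windows the log2 ratios of WT and Pspc1 KO correlated at a Pearson r of 0.93. Summed over the block, the log2 ratio of IP to input was 1.05 ± 0.04 (SD) in WT and 0.13 ± 0.07 in Pspc1 KO, a difference of -0.92 ± 0.08. With TMM factors over the listed windows the ratios reversed to -3.42 in WT and -3.92 in Pspc1 KO, a difference of -0.50. The CpG count correlated weakly with the log2 ratio (Pearson r = 0.28 in WT and 0.21 in Pspc1 KO).

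The regions whose signal followed the block most closely across libraries were sought among merged listed windows. Over the 12 libraries of the Pspc1 table, the closest of 106 regions was chr16:57391301-57391700 in Cmss1 and Filip1l (Pearson r = 0.965 on log2 RPKM), with 100, 105 and 113 RPKM in WT IP and 62.8, 58.4 and 53.1 in Pspc1-KO IP. It was followed by a window in Zc3h7a (chr16:11143901-11144000, r = 0.828) and by one outside annotated genes (chr11:109011901-109012000, r = 0.789), against a median r of 0.68 over all 106 regions. Over the 6 libraries of the Tet2 table the measure told regions apart poorly, since 33 of 4880 reached r = 1.000 after rounding and the median r was 0.96. Of the 3 with the highest r, 1 lay in the imprinted gene Mest (chr6:30737601-30739000), with 48.1, 36.8 and 39.2 RPKM in WT siNC and 4.88, 5.13 and 5.29 in Tet2 KO. The others lay outside annotated genes on chromosome 17 (chr17:87248201-87248500) and chromosome 10 (chr10:27818501-27818800).

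Genes that transcribe, silence or process ribosomal RNA were looked up for listed windows in their bodies. Of all 22028 protein-coding genes, 3.09% held a lower and 1.24% a higher window in the Tet2 table, without regard to gene length, and the lists were not tested against this. For Pspc1 KO, where 0.218% of all protein-coding genes held a listed window, 0 genes of each list had one. In the Tet2 table, of 12 annotated genes of the RNA polymerase I machinery (of 15 in the list), 2 had lower windows and 1 had higher ones. Taf1a and Taf1b, subunits of the selectivity factor that recruits the polymerase, had 4 lower windows each. In Taf1a these were strong in WT (299 to 547 RPKM) and had log2 differences of -0.97 to -0.70, and in Taf1b they held 6.77 to 22.1 RPKM in WT siNC and 0 to 3.55 in Tet2 KO. Polr1d, a subunit shared by RNA polymerases I and III, had 2 higher windows (log2 differences 1.13 and 1.12). Of 14 genes linked to ribosomal DNA silencing, 1 had a lower and 1 had higher windows. Dnmt1, the maintenance DNA methyltransferase, had 1 lower window (chr9:20909501-20909600), with 55.5, 46.7 and 50.8 RPKM in WT siNC and 26.9, 22.8 and 20.5 in Tet2 KO. Smarca5, the ATPase of the nucleolar remodelling complex, had 2 windows (chr8:80739301-80739500) that held 0 reads in each WT siNC library and 9.95 to 20.2 RPKM in Tet2 KO. Of 14 processing and modification genes only Utp4, which acts on the small subunit precursor, had a window, with 161, 164 and 135 RPKM in WT siNC and 95.3, 90.3 and 83.2 in Tet2 KO.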

How the data were processed

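Per the labels and the study's methods, the authors trimmed reads with Trimmomatic 0.39, aligned them to mm10 with Bowtie2 2.4.1, whose default mode places a read with several matches at 1 of its best positions, removed duplicates with Picard and compared groups with MEDIPS and edgeR in 100-bp windows with at least 10 reads, without copy number correction. The deposited tables hold the windows with an adjusted p under 0.1. The deposited counts are raw reads of each library in each window. RPKM, as deposited, was scaled by the authors to window length and library total. The relative methylation score is a fraction from 0 to 1 computed by the authors. The authors' own fold change and p-value columns and group means were not used.

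Library totals were recovered from count over RPKM (deviating by at most 0.0267% in any window over 20 RPKM). Log2 differences used RPKM + 0.1. Replicates that did not differ beyond sampling noise (chi-square test of listed windows with at least 20 reads) were averaged where another pair of the same group did differ. IP against input and KO against WT input were tested with edgeR 4.0.16 (quasi-likelihood, R 4.3.3) on the 307 windows of the Pspc1 table, 12 libraries, with Benjamini-Hochberg adjustment and DESeq2 1.42.0 as an alternative. The SE given with an edgeR log2 fold change was calculated as its absolute value over the square root of the F statistic of the test. These windows were listed for KO against WT IP, so tests that use IP libraries are not independent of that choice. On simulated data of these 307 windows, with 200 changed 2-fold in IP over input in WT, edgeR recovered 191 with 3 false calls. Before that change each simulated window had the same mean in IP and input, pooled over all 12 libraries, and an assumed spread. Outside the block the real medians were 106 RPKM in WT IP and 1.69 in WT input, so this recovery does not describe the real test there. Same-numbered libraries did not deviate together (Pearson r from -0.16 to 0.14), so no pairing was used. Sequences and genes came from the GRCm38 reference with GENCODE M21 and RefSeq annotation, the build of the files, and similar stretches were sought with minimap2 2.31. Windows given in full were those with the 2 highest and 2 lowest WT IP levels, the most and fewest CpG sites and the 2 largest and 2 smallest KO differences in each table. Other windows named were chosen after their values were seen. The members and lists were chosen with earlier results of these data known.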

Additional observations from a re-analysis of the deposited data

How the results depend on the processing

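Of the 78 values under another setting with all replicates, 62 stayed near the value reported and 16 moved or reversed. Nearly all of these came from scaling by the listed windows themselves, most of which were selected as differing or enriched. With TMM factors over the listed windows the log2 difference of the block was -0.89 for Tet2 KO against WT IP, -0.40 for Pspc1 KO against WT IP, 0.10 for input and -0.50 for IP over input in Pspc1 KO against WT, and the log2 ratio of IP to input reversed to -3.42 in WT and -3.92 in Pspc1 KO. With these factors or with DESeq2's own size factors, 0 block windows were called higher and 56 lower in IP over input, in WT and in Pspc1 KO. The median over windows put Tet2 KO at -3.04, and the windows listed in both tables put the WT log2 ratio at 1.09. With the replicate block, 50 windows were higher and 1 lower in WT, 26 higher and 19 lower in Pspc1 KO and 0 called for input, so the paired fit left these counts of block windows equal. Summing replicates closer than sampling noise gave the same counts of block windows. Over all 307 windows the number called lower in Pspc1-KO input was 6, with 10 after that summing, 7 with the replicate block, 0 with TMM factors and 10 with only the 6 libraries of the contrast, and the number called lower in WT IP was 5, or 3 without WT input replicate 1. Keeping all 3 libraries of each group apart was added after the data were seen. Leaving out 1 library at a time gave -2.81 to -2.65 for Tet2 KO, -0.94 to -0.90 for Pspc1 KO, -0.04 to 0.02 for input, 1.03 to 1.07 and 0.10 to 0.16 for the log2 ratios in WT and Pspc1 KO, -0.95 to -0.89 for their difference, and 49 to 51 windows called higher with 1 to 1 lower in WT, 23 to 25 higher with 14 to 20 lower in Pspc1 KO and 0 to 0 for input. The RPKM scale is relative to each library's total. Neighbouring windows share fragments and are not independent, and in Tet2 KO the block rests on 389 to 655 reads a library.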
